A study of Homo sapiens with 12 samples.

Results

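Synaptophysin (SYP), its relative SYPL1, the synaptogyrins SYNGR1, SYNGR2 and SYNGR3 and the secretory carrier membrane proteins SCAMP1 to SCAMP5 were followed as 10 of the 63541 genes in the deposited count table. The set was drawn up because the SYP and SCAMP5 mRNAs fell with each siRNA against snaR-A, so the comparisons of SYP and SCAMP5 with scramble are given as descriptions, without a test. The other 8 genes were taken for their family and not for their values, and all 10 passed the filter on low counts that left 21999 genes for testing.

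The cells were HEK293T, a line derived from human embryonic kidney, transfected for 48 h with siRNA at 12.5 nM. Each of 4 groups held 3 libraries and received a scramble control siRNA, si-snaR-A#1, si-snaR-A#2 or si-snaR-A#3, the latter directed at snaR-A, a small noncoding RNA made by RNA polymerase III, and all groups shared the line, the dose and the time. RNA was depleted of rRNA and selected for poly(A) tails before stranded sequencing, and the study's methods describe the libraries of a group as biological replicates handled on 1 day. The paper reports, by RT-qPCR, that each of these siRNAs lowered snaR-A. snaR-A itself was not read in these libraries, so the depletion in each of them was not checked here.

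Estimated counts summed to between 120.4 M and 180.1 M per library, and the 10 genes received between 664 and 25261 counts each in a library. Levels are given as CPM, the count scaled to a common library size, and called means that edgeR's quasi-likelihood test gave an adjusted p under 0.05 over all genes tested. Of the 11 epithelial and renal marker genes, 8 exceeded a mean of 1 CPM in every group, while KRT19 and PAX8 were at or near 0. Their summed level was 331 to 349.2 CPM with scramble, 251.4 to 281.3 with si-snaR-A#1, 358.1 to 363.4 with si-snaR-A#2 and 367.7 to 380.1 with si-snaR-A#3.

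The proteins of these families cross the membrane 4 times and reside in small vesicles. Synaptophysin and SYNGR1 and SYNGR3 are known from the synaptic vesicles of neurons and from neuroendocrine cells, where vesicles store and release transmitter, whereas SYPL1 and SYNGR2 belong to transport vesicles found in most tissues. SCAMPs travel between the trans-Golgi network, endosomes and the plasma membrane, and SCAMP5 is the member enriched in brain. HEK293T cells have no synapses but carry transcripts of many neuronal genes.

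SYP, which encodes the most familiar marker protein of synaptic vesicles and a partner of synaptobrevin, lies on the minus strand of chromosome X, at positions 49187815 to 49200218 of GRCh38. Its level in the scramble libraries was 19.1, 18.7 and 19.3 CPM. With si-snaR-A#1 it was 6.03, 6.49 and 6.35 CPM, with si-snaR-A#2 8.62, 8.14 and 8.50 CPM, and with si-snaR-A#3 6.74, 6.36 and 6.81 CPM. All 9 siRNA libraries lay below all scramble libraries, and the 3 values within each group lay close together. The fall was 3.02-fold with si-snaR-A#1, 2.26-fold with si-snaR-A#2 and 2.87-fold with si-snaR-A#3. On the log2 scale these differences were -1.60 (SE 0.06), -1.17 (SE 0.06) and -1.52 (SE 0.06), and in the mean of the 3 siRNAs -1.43 (SE 0.04). Of all genes tested, 0.627% had a lower log2 fold change in that mean, and 1.83% fell by more than 2-fold.

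SCAMP5, a brain-enriched carrier protein that takes part in vesicle recycling, lies on the plus strand of chromosome 15 at positions 74957219 to 75021495. Its level with scramble, 18.1, 19.6 and 19.7 CPM, was higher than with any siRNA. It was 8.64, 9.32 and 8.995 CPM with si-snaR-A#1, 6.82, 6.98 and 5.95 CPM with si-snaR-A#2, and 8.74, 8.56 and 7.83 CPM with si-snaR-A#3. Again all 9 siRNA libraries lay below all scramble libraries. The level fell 2.13-fold, 2.90-fold and 2.28-fold with si-snaR-A#1, #2 and #3, or by log2 values of -1.09 (SE 0.07), -1.54 (SE 0.07) and -1.19 (SE 0.07), with -1.27 (SE 0.06) in their mean. These values chose both genes, and the 3 comparisons share their scramble libraries. The paper's 3 siRNAs also overlap in sequence, all directed at the 3′-proximal part of snaR-A, so they are not independent perturbations. Effects of that shared sequence on other transcripts were not tested. In bulk RNA, fewer cells carrying a transcript and less of it per cell cannot be told apart.

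**Figure D1:**
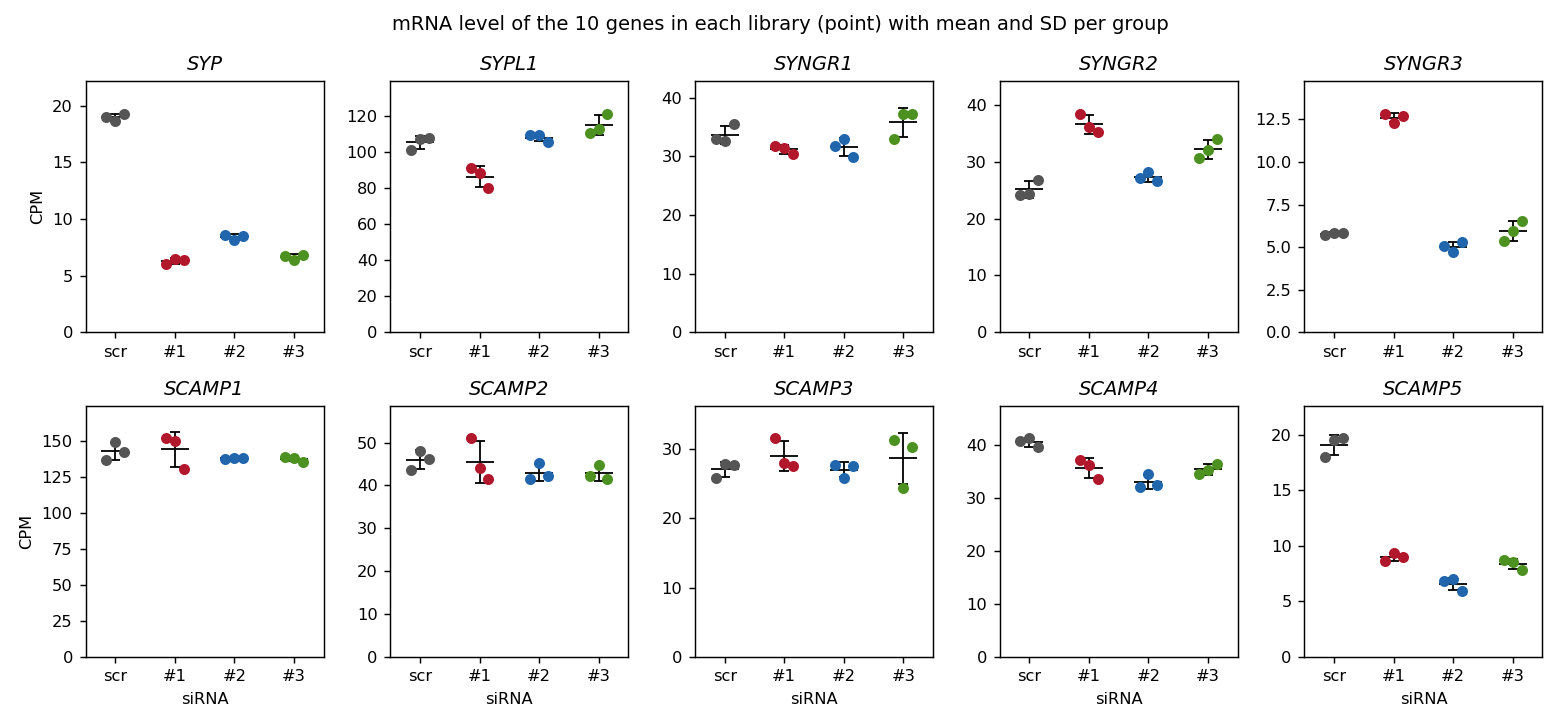
Level of each of the 10 genes in CPM (vertical axis, from 0) in every library (points) by siRNA group, with the mean (line) and SD (bars) of 3 libraries; scr is scramble and #1 to #3 are the 3 siRNAs. SYP and SCAMP5 sat at 18.1 to 19.7 CPM with scramble and at 5.95 to 9.32 CPM in the 9 siRNA libraries, SYNGR3 rose with #1, and SCAMP1, SCAMP2 and SCAMP3 overlapped between groups.

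The sequences around the start sites of SYP and SCAMP5 are shown because these are the genes whose mRNAs fell together. Both are RefSeq promoter windows of 300 bases on GRCh38.p14, with 250 bases before the start and 50 after it, printed 5′ to 3′ along the gene's strand. SYP covers chrX:49200144-49200443 on the minus strand and SCAMP5 chr15:74995313-74995612 on the plus strand. Capitals mark the GC box (GGGCGG on either strand) and, in SCAMP5, the letters GGACAG.
SYP: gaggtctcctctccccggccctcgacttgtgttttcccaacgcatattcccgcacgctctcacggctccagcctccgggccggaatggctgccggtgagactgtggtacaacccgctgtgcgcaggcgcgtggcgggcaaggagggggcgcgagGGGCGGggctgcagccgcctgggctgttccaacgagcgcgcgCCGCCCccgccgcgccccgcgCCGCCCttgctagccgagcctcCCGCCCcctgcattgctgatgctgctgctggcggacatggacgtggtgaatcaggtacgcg
SCAMP5: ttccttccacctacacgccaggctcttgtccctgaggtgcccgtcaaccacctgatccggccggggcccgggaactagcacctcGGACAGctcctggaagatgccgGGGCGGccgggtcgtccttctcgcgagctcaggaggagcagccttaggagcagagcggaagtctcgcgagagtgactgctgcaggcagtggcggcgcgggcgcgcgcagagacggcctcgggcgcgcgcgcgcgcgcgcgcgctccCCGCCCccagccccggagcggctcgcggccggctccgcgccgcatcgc
Both windows are rich in G and C, at 71.3% for SYP and 74% for SCAMP5. The SYP window holds 4 GC boxes and the SCAMP5 window 2, and a GC box occurs in 56.3% of the 22199 promoter windows of protein-coding genes. CAGCACC, a left part of the element bound by the repressor REST, was found in neither window and in 7.83% of all windows. GGACAG, the right part of that element, occurred once in SCAMP5, not in SYP, and in 21.1% of all windows. An E-box (CACGTG, in 8.34% of windows) and a CCAAT box (CCAAT, in 34.7%) were in neither. All searches covered both strands.

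REST is a zinc-finger repressor that keeps neuronal genes low outside neurons through a long element with a left and a right part. After these sequences had been read, both parts were searched together, as AGCACC, any 2 bases and GGACAG. The search covered both strands within 5000 bases of the RefSeq start. The leading C of CAGCACC was left out here, and the SCAMP5 match has a T in that place. The letters in SCAMP5 had been seen before the search, so its match is no independent find. Of the 9 genes with a start in the promoter table (SYNGR3 has no entry), SYP and SCAMP5 held a match, that of SCAMP5 inside the window above and that of SYP just past its end. Each is printed with its flanks on hg38, the match in capitals.
SYP: cgcgctccAGCACCGTGGACAGagcccgcc
SCAMP5: cgggaactAGCACCTCGGACAGctcctgga
The SYP match, chrX:49200126-49200139 on the minus strand, lies in intron 1 of the canonical transcript, 12 bases past exon 1. The SCAMP5 match, chr15:74995389-74995402 on the plus strand, lies 161 bases upstream of exon 1 of the canonical transcript and is spanned by 1 of the gene's 18 transcripts. No annotated exon of either gene covers its match. Such a match was found near 183 of 15843 genes, or 1.16%. A match of letters is not a measurement of binding, and its part in the lower levels was not tested.

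Counted over the genes that the choice did not use, 4 of 8 were called with si-snaR-A#1, 2 higher and 2 lower, where 45.2% of all genes tested were called, 21.9% higher and 23.3% lower. With si-snaR-A#2, 1 of 8 was called lower and 0 higher against 25.8% of all genes, 13.7% higher and 12.1% lower. For si-snaR-A#3, 1 of 8 was called higher and 1 lower against 29.4%, 16.5% higher and 13% lower. In the mean of the 3 siRNAs, 2 of 8 were called higher and 1 lower against 32.2%, 15.6% higher and 16.6% lower. These shares lay on both sides of those of all genes, and the median log2 fold change of the 8 genes in the mean, -0.0346, was near that of all genes, -0.0384.

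SYPL1, the broadly expressed counterpart of synaptophysin in general transport vesicles, did not share the fall of SYP. Its level was 100.9, 107.1 and 107.5 CPM with scramble and 90.7, 88.0 and 79.8 CPM with si-snaR-A#1. It was 109.0, 109.0 and 105.5 CPM with si-snaR-A#2, while si-snaR-A#3 gave 110.5, 112.8 and 121.0 CPM. The si-snaR-A#1 libraries lay below all scramble libraries, those of si-snaR-A#2 overlapped with them and those of si-snaR-A#3 lay above. SYPL1 fell with si-snaR-A#1 by 0.29 on the log2 scale (SE 0.05, edgeR adjusted p = 0.000509). In edgeR, the difference was 0.04 with #2 (SE 0.05, adjusted p = 0.658) and 0.13 with #3 (SE 0.05, adjusted p = 0.0821), and neither passed the threshold. The second of these passed without the third library of si-snaR-A#1, through the shared estimate of the spread (edgeR adjusted p = 0.0348).

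Among the synaptogyrins, SYNGR3, a synaptic vesicle protein known to bind the dopamine transporter, rose with 1 siRNA. Its scramble libraries held 5.69, 5.81 and 5.85 CPM, and those of si-snaR-A#1 12.8, 12.3 and 12.7 CPM. The levels with si-snaR-A#2, 5.06, 4.72 and 5.30 CPM, and with si-snaR-A#3, 5.36, 5.94 and 6.53 CPM, were far lower, the former just below all scramble libraries and the latter overlapping with them. The rise with si-snaR-A#1 was 2.18-fold (log2 1.12, SE 0.08, edgeR adjusted p = 1.82e-07), and 97% of genes had a lower log2 fold change. With si-snaR-A#2 the log2 difference was -0.20 (SE 0.08, edgeR adjusted p = 0.0827) while si-snaR-A#3 gave 0.04 (SE 0.08, edgeR adjusted p = 0.751). The mean of the 3 siRNAs was called higher (0.32, SE 0.07, edgeR adjusted p = 0.00217), although the other two siRNAs gave no call.

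SYNGR2, also called cellugyrin, is the synaptogyrin of non-neuronal cells. It stood at 24.2, 24.4 and 26.8 CPM with scramble, 38.5, 36.1 and 35.2 CPM with si-snaR-A#1, 27.2, 28.2 and 26.6 CPM with si-snaR-A#2, and 30.6, 32.1 and 34.0 CPM with si-snaR-A#3. The libraries of si-snaR-A#1 and #3 lay above all scramble libraries, and those of si-snaR-A#2 overlapped with them. SYNGR2 rose 1.46-fold with si-snaR-A#1 (log2 0.54, SE 0.05, edgeR adjusted p = 4.12e-06) and 1.28-fold with si-snaR-A#3 (log2 0.36, SE 0.05, edgeR adjusted p = 0.000322). The difference with si-snaR-A#2 was 0.12 (SE 0.05, edgeR adjusted p = 0.131), and that of the mean 0.34 (SE 0.05, edgeR adjusted p = 9.43e-05). Without the third scramble library, the difference with si-snaR-A#2 was 0.19 and passed the threshold (edgeR adjusted p = 0.027). SYNGR1, the main neuronal synaptogyrin, ranged from 29.9 to 37.3 CPM over the 12 libraries and was not called against scramble with any siRNA (edgeR adjusted p = 0.133, 0.26 and 0.266).

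SCAMP4, a broadly expressed carrier protein that, like SCAMP5, has a short amino-terminal region, was the other member that fell with each siRNA. It stood at 40.6, 41.2 and 39.6 CPM with scramble and at 37.0, 36.1 and 33.5 CPM with si-snaR-A#1. The levels were 32.1, 34.5 and 32.4 CPM with si-snaR-A#2 and 34.4, 35.2 and 36.3 CPM with si-snaR-A#3, so all 9 siRNA libraries lay below all scramble libraries. The fall was smaller than that of SCAMP5, at log2 values of -0.19, -0.29 and -0.20 (SE 0.05 each) with edgeR adjusted p = 0.00519, 0.000456 and 0.00632. Of all genes tested, 34.4%, 22.4% and 32.8% had a lower log2 fold change with #1, #2 and #3, so a fall of this size was common. SCAMP4 shares 771 exon bases, 11.1% of its own, with ADAT3, a tRNA deaminase subunit on the same strand, so the division of counts between them is uncertain. ADAT3 was at 2.32 ± 0.14 CPM with scramble and 3.59 ± 0.19 with si-snaR-A#1 (SD, n = 3 each). This was a rise of 0.63 on the log2 scale (SE 0.12, edgeR adjusted p = 0.000703). With the other siRNAs ADAT3 was lower than with scramble, as SCAMP4 was, at 1.93 CPM with #2 and 1.84 CPM with #3. Tested by edgeR, the fall of ADAT3 by 0.34 with #3 was called, at an adjusted p of 0.0489. Its fall by 0.27 with #2 was not called, at an adjusted p of 0.12.

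SCAMP1, SCAMP2 and SCAMP3, the long carrier proteins of general recycling, were called in none of the 7 comparisons made. SCAMP1 had means of 142.7, 143.9, 137.7 and 137.4 CPM with scramble, si-snaR-A#1, #2 and #3 (SD 6.07, 11.95, 0.34 and 1.78, n = 3 each). SCAMP2 had means of 46.0, 45.5, 43.0 and 42.9 CPM (SD 2.24, 4.89, 2.03 and 1.75). SCAMP3 had means of 27.1, 29.1, 27.1 and 28.7 CPM (SD 1.10, 2.18, 1.10 and 3.70). Their log2 differences from scramble lay between -0.10 and 0.10, and the groups overlapped in every case. Under some alternatives SCAMP1 was called higher with #1. Against #2 it passed without the third library of si-snaR-A#1 (log2 0.11, edgeR adjusted p = 0.0456) and under upper quartile scaling (0.0497 by the same test). Against #3 it passed without that library (log2 0.13, edgeR adjusted p = 0.0219), under upper quartile scaling (0.0331) and with a filter at a mean of 1 CPM (0.0347).

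**Figure D2:**
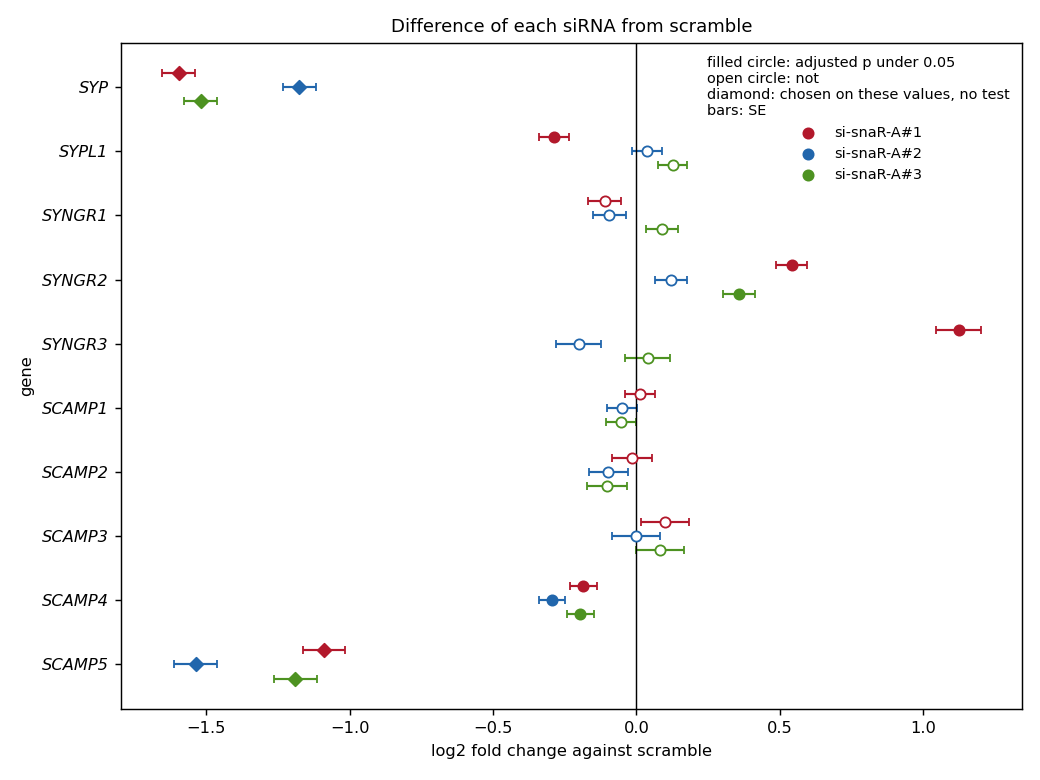
Log2 fold change of each siRNA against scramble (horizontal axis) for each gene, with SE bars; filled circles passed an edgeR adjusted p of 0.05, open circles did not, and diamonds mark SYP and SCAMP5, which were chosen on these values and have no test. SYP and SCAMP5 lie between -1.60 and -1.09, SCAMP4 between -0.29 and -0.19, and SYNGR3 stands at 1.12 with si-snaR-A#1.

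The siRNAs were next compared with each other, where the scramble libraries enter only through the filter, the scaling and the shared estimate of the spread. SYP and SCAMP5 differed between siRNAs in opposite ways. SYP was higher with si-snaR-A#2 than with si-snaR-A#1, the log2 difference of #1 against #2 being -0.42 (SE 0.06, edgeR adjusted p = 5.34e-05), and higher with #2 than with #3 by 0.34 (SE 0.06, edgeR adjusted p = 0.00148). SCAMP5 was lowest with si-snaR-A#2, with log2 differences of 0.45 for #1 against #2 (SE 0.07, edgeR adjusted p = 0.000265) and -0.35 for #2 against #3 (SE 0.07, edgeR adjusted p = 0.00699). Each of these pairs of groups was free of overlap. Between si-snaR-A#1 and #3 neither passed the threshold, at -0.08 for SYP (SE 0.06, edgeR adjusted p = 0.297) and 0.10 for SCAMP5 (SE 0.07, edgeR adjusted p = 0.286).

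SYNGR3 showed the largest difference between siRNAs among the 10 genes. It was 2.50-fold higher with si-snaR-A#1 than with #2 (log2 1.33, SE 0.08, edgeR adjusted p = 4.7e-08) and 2.12-fold higher than with #3 (log2 1.09, SE 0.08, edgeR adjusted p = 1.96e-07). SYPL1 was lower with si-snaR-A#1 than with #2 (-0.32, SE 0.05, edgeR adjusted p = 0.000189) and also lower than with #3 (-0.41, SE 0.05, edgeR adjusted p = 2.28e-05). SYNGR2 differed in all 3 pairs, in the order #1, #3, #2 from high to low, and SYNGR1 was lower with #1 than with #3 (-0.20, SE 0.06, edgeR adjusted p = 0.0107). The difference of SYNGR2 between #1 and #3, 0.18, did not pass the threshold without the first library of either group (edgeR adjusted p = 0.0636 and 0.0643).

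Between si-snaR-A#1 and #2, 3 of the 10 genes were called higher and 2 lower, where 46.7% of all genes were called, 23.7% higher and 23% lower. Between #1 and #3, 2 were called higher and 2 lower against 48.6%, 23.8% higher and 24.8% lower. Between #2 and #3, 1 was called higher and 3 lower against 15.6%, 6.52% higher and 9.03% lower.

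**Figure D3:**
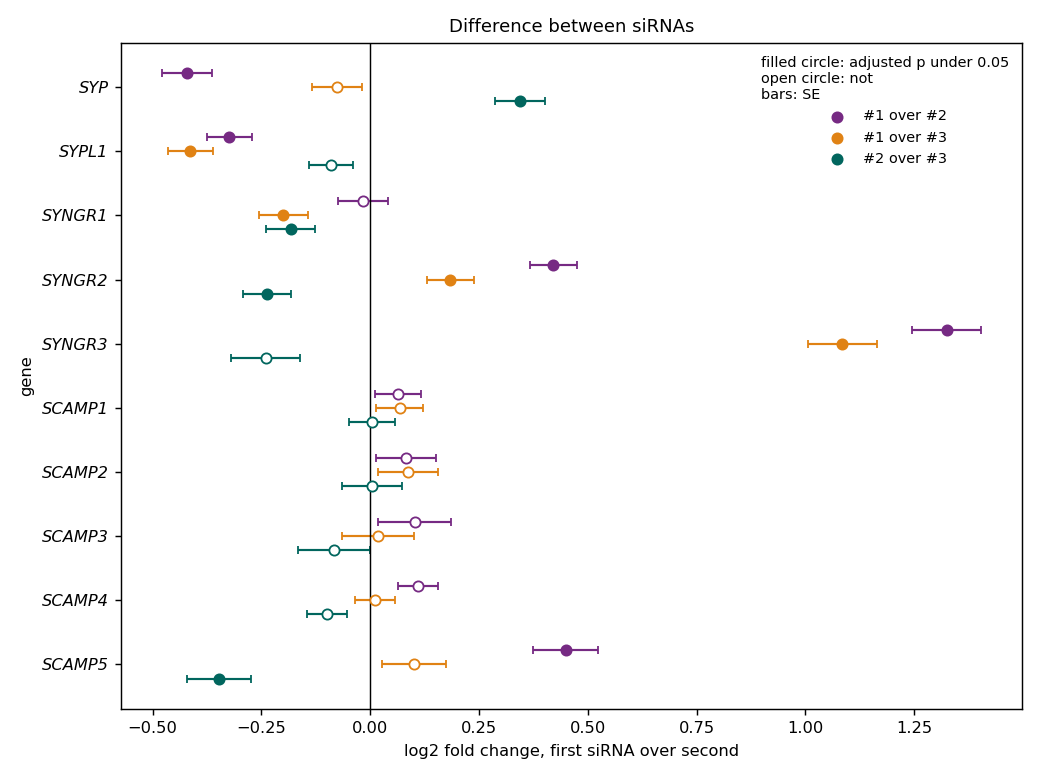
Log2 fold change of the first siRNA over the second (horizontal axis) for each gene, with SE bars; filled circles passed an edgeR adjusted p of 0.05 and open circles did not. SYP and SCAMP5 lie on opposite sides of 0 in the comparisons with si-snaR-A#2, and SYNGR3 stands at 1.09 and 1.33 in those with si-snaR-A#1.

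Divided by the length of the canonical transcript, levels can be set side by side between genes. With scramble, SYPL1 was highest at 49.4 CPM per kb, followed by SCAMP1 at 23.2, SCAMP2 at 18.8, SCAMP3 at 17.6, SYNGR2 at 16.8 and SCAMP4 at 16.2 CPM per kb. The neuronal members were lower, with SYP at 7.85, SYNGR1 at 7.68, SCAMP5 at 5.65 and SYNGR3 at 2.85 CPM per kb. Neighbours in this order from SCAMP2 to SCAMP4 overlapped between libraries, as did SYP and SYNGR1. With si-snaR-A#1, SYP was last at 2.60 CPM per kb, overlapping with SCAMP5 at 2.66, and SYNGR3 stood above both at 6.22 CPM per kb. SCAMP5 was last with si-snaR-A#2, at 1.95 CPM per kb, and with si-snaR-A#3, at 2.48 CPM per kb.

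Within each family, the broadly expressed members supplied most of the transcripts on this per-length scale. SYP made up 13.7% ± 0.48 of the summed CPM per kb of SYP and SYPL1 with scramble (SD, n = 3), and 6.05%, 6.43% and 4.84% with si-snaR-A#1, #2 and #3. SCAMP5 made up 6.95% ± 0.17 of the SCAMPs with scramble (SD, n = 3), and 3.44%, 2.68% and 3.31% with the 3 siRNAs. SYNGR3 went from 10.4% ± 0.41 of the synaptogyrins with scramble (SD, n = 3) to 16.5% ± 0.51 with si-snaR-A#1 and 8.89% and 8.97% with #2 and #3. SYNGR1 went from 28.1% ± 0.19 to 18.8% ± 0.37 with si-snaR-A#1. These shares are descriptions with no test.

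**Figure D4:**
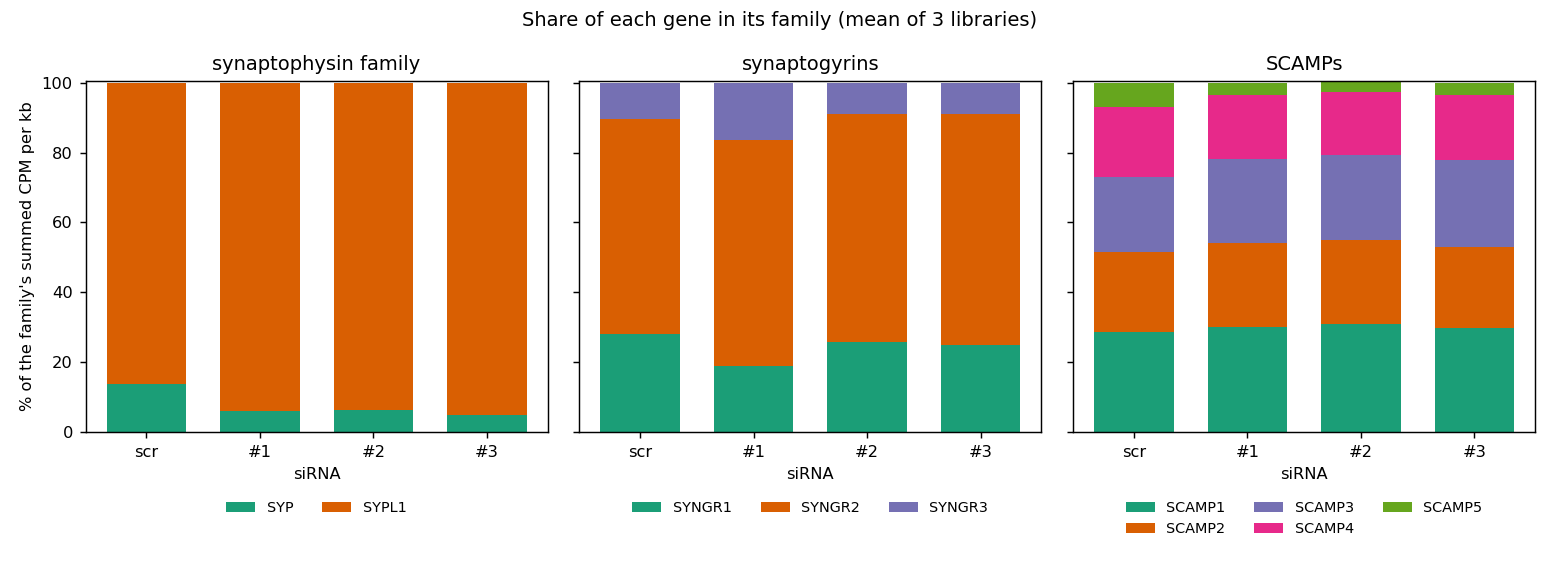
Share of each gene in the summed CPM per kb of its family (vertical axis, percent, mean of 3 libraries) by siRNA group. SYPL1 supplied 86.3% or more of the synaptophysin pair in every group, and the shares of SYP and SCAMP5 were smaller with each siRNA than with scramble.

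Over the 12 libraries, the genes most like SYP among 13204 with a mean of at least 1 CPM were SENP2, a SUMO protease (Pearson r of log2 CPM 0.995), DNAJB2, a cochaperone (0.982), and CELF2, an RNA-binding splicing regulator (0.974). SENP2 was at 127.2 CPM with scramble and at 84.4, 93.5 and 85.7 CPM with si-snaR-A#1, #2 and #3. SENP2 thus had the same order of groups as SYP with smaller differences, its log2 values being -0.59, -0.44 and -0.57. The genes most like SCAMP5 were ATP6V0E2, a subunit of the vesicular proton pump (0.968), BEX1, a brain-expressed X-linked gene (0.967), and GMFB, an actin-regulating protein (0.963). BEX1 was at 9.79 CPM with scramble and 6.24, 5.57 and 6.51 CPM with the 3 siRNAs. SYP and SCAMP5, both chosen for lower levels with each siRNA, correlated with each other at 0.846, which placed SCAMP5 only 185th among the genes most like SYP and SYP 191st among those most like SCAMP5. SCAMP4 and SCAMP5 correlated at 0.91. These correlations are descriptions over libraries that share 4 groups.

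Lists of genes around the 10 were set beside them in the mean of the 3 siRNAs, where 15.6% of all genes were called higher and 16.6% lower. Of 28 tested synaptic vesicle proteins outside the families, 1 was called higher and 11 lower, with a median log2 fold change of -0.16. By siRNA, 4, 4 and 3 were called higher and 9, 11 and 9 lower with #1, #2 and #3. Of all genes, 21.9%, 13.7% and 16.5% were called higher and 23.3%, 12.1% and 13% lower in these comparisons. In the mean, SYT1, the calcium sensor of fast release, was the one called higher (0.17, SE 0.05, edgeR adjusted p = 0.0246). With si-snaR-A#3 alone it was not called (edgeR adjusted p = 0.169). SYT11, a synaptotagmin that does not bind calcium, fell from 12.2 ± 0.58 CPM to 6.74, 6.21 and 8.32 CPM (SD, n = 3), by 0.79 on the log2 scale (SE 0.05, edgeR adjusted p = 3.97e-07). DNAJC5, the cysteine string protein, fell by 0.60 (SE 0.03, edgeR adjusted p = 1.02e-07), most with si-snaR-A#3, where its log2 fold change was -1.37.

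Of 31 tested SNARE fusion and active zone proteins, 3 were called higher and 11 lower in the mean, with a median of -0.129. By siRNA, 6 were called higher with each, and 14, 11 and 13 lower with #1, #2 and #3, beside the shares of all genes given above. VTI1B, an endosomal SNARE, fell from 90.4 CPM to 55.4 CPM with si-snaR-A#2 and 35.7 CPM with si-snaR-A#3 and stood at 85.8 CPM with #1, the mean log2 fold change being -0.71 (SE 0.05, edgeR adjusted p = 5.42e-07). BSN, the active zone scaffold bassoon, fell by 0.68 (SE 0.14, edgeR adjusted p = 0.0022). STX12, an endosomal syntaxin, rose by 0.59 (SE 0.03, edgeR adjusted p = 1.43e-07). Of 36 clathrin coat and endocytosis proteins, 12 were called higher and 3 lower, with a median of 0.0219. The adaptor subunits AP2A1 and AP3D1 rose by 0.47 and 0.38 (SE 0.04 each) with edgeR adjusted p = 6.62e-06 and 1.35e-05. AMPH, amphiphysin, fell by 0.41 in the mean (SE 0.04, edgeR adjusted p = 1.75e-05), mostly through si-snaR-A#1, at -1.04. It was not called with #2 (-0.14, edgeR adjusted p = 0.0843) or #3 (-0.06, edgeR adjusted p = 0.491).

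Markers of neurons were read beside the 10 genes. Of 13 neuronal markers, 7 exceeded a mean of 1 CPM with scramble, si-snaR-A#2 and #3 and 6 with si-snaR-A#1. Their summed level was 433.7 to 459.2 CPM with scramble, 423.5 to 467.2 with si-snaR-A#1, 686.1 to 707.1 with si-snaR-A#2 and 529.1 to 543.1 with si-snaR-A#3. The sums with si-snaR-A#1 overlapped with those of scramble, and those with #2 and #3 lay above. The neurofilament genes NEFL and NEFM made up most of these sums. INA, a neuronal intermediate filament, had means of 12.1 CPM with scramble and 3.69, 8.59 and 8.67 CPM with si-snaR-A#1, #2 and #3, and TUBB3, a neuronal tubulin, 5.62 and then 3.79, 3.20 and 3.79 CPM. INA and TUBB3 were thus lower in mean with each siRNA. SNAP25 and RBFOX3 were also lower in mean with each, but in part by little. SNAP25 was at 1.41 CPM with scramble and 1.37 and 1.32 CPM with #2 and #3. RBFOX3 was at 4.42 CPM with scramble and 4.29 CPM with both #1 and #3. NEFM went the other way, with means of 258.4 CPM with scramble and 279.7, 448.2 and 353.8 CPM with #1, #2 and #3. MAP2, at a mean under 1 CPM in every group, was also higher in mean with each, at 0.51 CPM with scramble and 0.53, 0.84 and 0.59 CPM. Its single libraries spanned 0.33 to 1.22 CPM, and none of these marker differences was tested. NEFL was higher only with #2, and GAP43 was higher with #2 and #3 but lower with #1. STMN2, DCX and ELAVL3, defining markers of neurons, were at or near 0. The part of these levels in the falls of SYP and SCAMP5 was not tested. Of 5 markers of other cell types, only COL1A1 exceeded 1 CPM.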

How the data were processed

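The deposited table held estimated counts per gene for each of the 12 libraries, which the authors made with TrimGalore and Salmon. The counts were rounded to whole numbers. Genes were filtered with filterByExpr, scaled by TMM (factors 0.956 to 1.089) and fitted in 1 model with a coefficient per group by edgeR 4.0.16 (R 4.3.3) and its quasi-likelihood test. The common biological coefficient of variation was 0.117. Adjusted p values follow Benjamini and Hochberg over the 21999 genes tested. Alternatives used limma 3.58.1, DESeq2 1.42.0, other filters and scalings, and the omission of each library. Of the 63541 genes, 58160 were in GENCODE release 44, from which symbols and positions were taken. Promoter windows came from RefSeq (GRCh38.p14), and 9 of the 10 genes had an entry. The genes and the 6 lists around them were chosen with earlier results of these data known. From each list, up to 2 called rises and 2 called falls in the mean of the 3 siRNAs were named, with the same sign for each siRNA and a mean of at least 1 CPM, plus the 3 genes most like SYP and SCAMP5 and genes overlapping a member. SYP-AS1 overlaps 68 exon bases of SYP on the opposite strand and had 0 to 6 counts per library. The scripts were tested on simulated data. Protein sequences were not analysed here. A gene that the naming rule selects is not reported here.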

Additional observations from a re-analysis of the deposited data

Results flagged for a closer look

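The effects of the 3 siRNAs differed for 6 of the 10 genes in at least 1 test between siRNAs, and those differences are listed here as log2 fold changes with edgeR's adjusted p. Groups of 3 libraries are too small for a test of single libraries that stand apart.

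Between si-snaR-A#1 and #2, 5 genes differed. SYP stood at -0.42 (edgeR adjusted p = 5.34e-05), SYPL1 at -0.32 (edgeR adjusted p = 0.000189), SYNGR2 at 0.42 (edgeR adjusted p = 3.56e-05), SYNGR3 at 1.33 (edgeR adjusted p = 4.7e-08) and SCAMP5 at 0.45 (edgeR adjusted p = 0.000265).

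Between si-snaR-A#1 and #3, 4 genes differed. SYPL1 stood at -0.41 (edgeR adjusted p = 2.28e-05), SYNGR1 at -0.20 (edgeR adjusted p = 0.0107), SYNGR2 at 0.18 (edgeR adjusted p = 0.0133) and SYNGR3 at 1.09 (edgeR adjusted p = 1.96e-07).

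Between si-snaR-A#2 and #3, 4 genes differed. SYP stood at 0.34 (edgeR adjusted p = 0.00148), SYNGR1 at -0.18 (edgeR adjusted p = 0.046, lost on omission of 11 of the 12 libraries in turn), SYNGR2 at -0.24 (edgeR adjusted p = 0.0108) and SCAMP5 at -0.35 (edgeR adjusted p = 0.00699).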

How the results depend on the processing

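The counts of called genes among the 10 stayed within 1.5 times their values under every alternative fitted. Over those that left out 1 library, they ranged from 6 to 6 for si-snaR-A#1, 3 to 4 for #2, 4 to 5 for #3, 5 to 5 for the mean, 5 to 7 for #1 against #2, 3 to 5 for #1 against #3 and 3 to 5 for #2 against #3. The counts against scramble include SYP and SCAMP5, which were chosen on those values, so their steadiness is partly given by the choice. In the main fit, 4, 1, 2 and 3 of the other 8 genes were called with #1, #2, #3 and in the mean. No log2 fold change that was called changed sign. The call of SYNGR1 between #2 and #3 was lost under limma-voom (adjusted p = 0.0581), with only the 2 groups compared (edgeR adjusted p = 0.0855), under DESeq2's size factors in edgeR (edgeR adjusted p = 0.0596) and on omission of 11 of the 12 libraries in turn (edgeR adjusted p = 0.0527 to 0.17). SYNGR3 was called between #2 and #3 by DESeq2 (adjusted p = 0.0322) and without the first library of #3 (edgeR adjusted p = 0.0241). SCAMP4 was called between #1 and #2 under upper quartile scaling, a filter at a mean of 1 CPM and 2 omissions (edgeR adjusted p = 0.00467 to 0.0424). SYPL1 was called higher with #3 by DESeq2 (adjusted p = 0.0432), and SYNGR3 lower with #2 under upper quartile scaling (edgeR adjusted p = 0.0351) and with genes below a mean of 1 CPM left out (0.046). Under that scaling, SYP stood at -1.22 with #2 and -1.57 with #3. It also lowered the share of higher calls among all called genes from 53.2% to 40.5% for #2 and from 55.9% to 42.7% for #3. Over all genes, the 3421 calls between #2 and #3 became 2215 without the second library of #2.

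The replicate number was also fitted as a block. Of the 8 genes that the choice did not use, 4, 1, 2 and 3 were then called with si-snaR-A#1, #2, #3 and in their mean. These counts were those of the main fit, where 45.2%, 25.8%, 29.4% and 32.2% of all genes were called. Between siRNAs, the 10 genes gave 5, 4 and 3 calls with the block. The replicate number did not pair the libraries. Of 18 same-numbered pairs, 0 correlated above 0.1, and 2 of 12 libraries correlated best with their own number. The block took the call of SYNGR1 between #2 and #3 (edgeR adjusted p = 0.0679) and changed no other call.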

Other observations

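Further lists touch the same membranes or the repressor whose element was searched. Of 15 tested proteins with the MARVEL domain, which synaptophysins and synaptogyrins carry and SCAMPs do not, 2 were called higher and 7 lower in the mean of the 3 siRNAs, with a median log2 fold change of -0.188 beside -0.0384 for all genes. CMTM4, a chemokine-like transmembrane protein, fell by 0.53 (SE 0.03, edgeR adjusted p = 1.82e-07) and MAL2, a protein of apical transport, by 0.62 (SE 0.10, edgeR adjusted p = 0.000382). Both fell most with #1, by 0.95 and 1.04, and were not called with #2 (edgeR adjusted p = 0.0521 and 0.0934). CMTM3 rose by 0.34 (SE 0.05, edgeR adjusted p = 0.000301) and CMTM6, known for holding PD-L1 at the cell surface, by 0.17 (SE 0.04, edgeR adjusted p = 0.0108). CMTM3 rose by 0.72 with #1 and was not called with #2 (0.09, edgeR adjusted p = 0.358). CMTM6 was not called with #3 (0.10, edgeR adjusted p = 0.188). Of 14 neuroendocrine granule proteins, 1 was called higher and 5 lower, with a median of -0.151. CADPS2, a priming factor for dense-core granules, rose by 0.23 (SE 0.03, edgeR adjusted p = 0.000192), and SYTL4, granuphilin, fell by 0.15 (SE 0.05, edgeR adjusted p = 0.0229). By siRNA, SYTL4 was called with #3 (-0.28, edgeR adjusted p = 0.00257) and not with #1 or #2 (edgeR adjusted p = 0.0895 and 0.58).

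Of 17 genes for REST and its corepressors, 6 were called higher and 1 lower in the mean, with a median of 0.102. HDAC1, a histone deacetylase, rose by 0.45 (SE 0.03, edgeR adjusted p = 5.28e-07) and HMG20B, a subunit of the LSD1 complex, by 0.39 (SE 0.04, edgeR adjusted p = 6.66e-06). REST itself, named after its values were seen, was at 97.7, 95.8 and 94.9 CPM with scramble, 110.7, 105.5 and 108.7 with si-snaR-A#1, 101.4, 102.9 and 106.3 with #2, and 136.2, 130.7 and 118.4 with #3. All 9 siRNA libraries were above all scramble libraries. The rise was 0.17 (SE 0.05, edgeR adjusted p = 0.0095) with #1 and 0.42 (SE 0.05, edgeR adjusted p = 3.11e-05) with #3, and the difference with #2 was 0.11 (SE 0.05, edgeR adjusted p = 0.122). Of the other 181 genes with the paired REST letters near a start, 110 were tested, and in the mean 27 were called lower and 15 higher, or 24.5% and 13.6% beside 16.6% and 15.6% of all genes. Their median log2 fold change was -0.122. By siRNA, 26.4% were called lower and 22.7% higher with #1 beside 23.3% and 21.9% of all genes, 25.5% and 7.27% with #2 beside 12.1% and 13.7%, and 18.2% and 11.8% with #3 beside 13% and 16.5%. These shares were not tested against those of all genes. Both the search and this list were added after the sequences had been seen, and a part of REST in the falls of SYP and SCAMP5 was not tested.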
